A study of Drosophila melanogaster with 12 samples.

Results

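The 2 knockdown groups of a *Drosophila melanogaster* head RNA sequencing series were compared directly with each other, without subtracting their controls. In one group *PIG-A* was knocked down in neurons, and in the other it was knocked down in glia. The libraries were taken by their labels, 3 of neuron-specific knockdown and 3 of glia-specific knockdown, which are 6 of the 12 libraries of the series. Neuron-specific knockdown flies carried ELAV-GAL4 with the *PIG-A* RNAi stock BDSC 62696, and glia-specific knockdown flies carried REPO-GAL4 with the same RNAi stock. The remaining 6 libraries are the control crosses, 3 of ELAV-GAL4 and 3 of REPO-GAL4 with the AttP stock BDSC 36304. They enter below as the same contrast between drivers in heads without the RNAi. All flies were held at 25°C, with light for 12 h a day, and received no treatment. The labels give an age of 3 to 5 days and a pool of 5 to 10 whole heads per library, while the methods of the study name male flies. Each library is therefore a mixture of knockdown cells and cells in which the driver is silent, and a lower level in a whole head cannot separate fewer cells of a type from less RNA per cell. The knockdown groups differ in the driver stock as well as in the cell type of the knockdown, so stock background, any difference in rearing or collection and cell type cannot be told apart within the knockdown comparison alone.

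PIG-A is the catalytic subunit of the enzyme that adds the first sugar of the glycosylphosphatidylinositol (GPI) anchor, the glycolipid that tethers many surface proteins to the outer leaflet of the plasma membrane. Synthesis begins on the cytoplasmic face of the endoplasmic reticulum and ends with transfer of the finished anchor to the protein. Neurons and glia both use GPI-anchored proteins for adhesion, axon guidance and signalling. elav marks neurons and repo marks nearly all glia in the fly, and both genes provide the regulatory sequences of widely used pan-neuronal and pan-glial drivers. The question addressed here is how the head transcriptome differs when *PIG-A* is lowered in one of these cell classes rather than the other.

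The 6 knockdown libraries held 22445055 to 30593602 counts and between 12185 and 12390 genes with at least 1 count. Among all 12 libraries, neuron knockdown library 3 and *repo* control library 3 stood apart from the rest. On the leading principal component of log2 CPM, which held 34.7% of the variance, they lay at 40.7 and 38.0, while the other 10 lay between -20.5 and 2.31. The summed level of 25 muscle genes in these 2 libraries was 26298 and 27673 CPM, where CPM is a gene's count relative to the library total after scaling by the trimmed mean of M values (TMM). In the other knockdown libraries it ranged from 5872 to 8711 CPM. Many results below are therefore given with and without neuron knockdown library 3. *Yp1*, a yolk protein made by the female fat body, was at 39107 to 82833 CPM in the 6 knockdown libraries. *lncRNA:roX2*, a dosage compensation RNA of males, had between 0 and 3 counts in each of them. *lncRNA:roX1*, another dosage compensation RNA of males whose exons overlap *ec*, was detected in each, at 39 to 206 counts. The levels of *Yp1* and *lncRNA:roX2* go against the sex named in the methods, and the sex of the heads was not tested. The labels name these samples as replicates, and the p-values below measure only the spread between such samples.

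*PIG-A* itself was lower under the neuronal driver than under the glial driver, but it narrowly missed the threshold. Its levels were 2.98, 2.54 and 3.05 CPM in neuron knockdown libraries 1, 2 and 3, and 3.99, 4.88 and 5.28 CPM in glia knockdown libraries 1, 2 and 3. The groups did not overlap. The log2 fold change of neuron over glia knockdown was -0.72 (SE 0.17), at an adjusted p of 0.05002 by edgeR's quasi-likelihood test against a limit of 0.05. The same contrast between the control crosses was -0.20, and the difference between these 2 contrasts had an adjusted p of 0.255 in edgeR's interaction test. Without neuron knockdown library 3 *PIG-A* was called (adjusted p = 0.0479). A difference beyond that between the drivers was not shown.

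No marker of neurons was called between the knockdown groups, though most were slightly higher in neuron knockdown heads. *elav*, an RNA-binding protein of all neurons, was at 114, 113 and 113 CPM in neuron knockdown and 111, 109 and 107 CPM in glia knockdown heads. Its difference on the log2 scale was 0.06 (SE 0.06), and edgeR's adjusted p was 0.582. All 20 neuron markers were tested and 0 were called by edgeR, DESeq2 or limma-voom, with 4 higher at an unadjusted p under 0.05. Their summed level was 8794, 8847 and 10628 CPM in neuron knockdown and 8259, 8172 and 8351 CPM in glia knockdown heads, without overlap. Of the 20, 10 lay without overlap above the glia knockdown libraries and 0 below, while 36.7% of all genes tested did not overlap in either direction. The median log2 fold change of the markers was 0.18, with 19 positive, against 0.00 over all 9940 genes tested. Without neuron knockdown library 3 the median of the markers was 0.09. At an unadjusted p under 0.05 in edgeR, 1386 of all 9940 genes were higher and 1461 lower. Such counts in the lists below are to be read against this base.

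Some glial markers were lower in neuron knockdown heads. *repo*, the transcription factor of glia, was at 45.7, 50.3 and 41.0 CPM in neuron knockdown and 57.8, 60.2 and 61.2 CPM in glia knockdown heads. The groups did not overlap, yet edgeR's adjusted p was 0.0517 at a log2 fold change of -0.39. Of 17 glia markers tested, 4 were lower in neuron knockdown heads, and the median log2 fold change was -0.25. Both marker classes were thus present in all 6 libraries.

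Across the transcriptome, 184 genes were upregulated and 258 were downregulated in neuron-specific knockdown heads compared with glia-specific knockdown heads. These are 1.85% and 2.6% of 9940 genes tested, where a call needed a 1.5-fold difference and an edgeR adjusted p no higher than 0.05. Of the 442 genes, 411 encode proteins and 82 differed at least 4-fold, 41 in each direction. The CPM ranges of the groups did not overlap for any of the 442, and this held for 36.7% of all genes tested. The counts depended on which library was left out. Without glia knockdown library 1, 2 or 3 they fell to 42 higher and 80 lower, 37 and 45, and 72 and 100. Without neuron knockdown library 1, 109 were higher and 173 lower, and without library 3 of that group, which stood apart, 245 were higher and 313 lower. A call was kept in all 6 such fits by 77 genes, 33 higher and 44 lower. Of the 80 called genes named by rule below, 52, 55 and 43 lost the call without glia knockdown library 1, 2 or 3, and 30, 20 and 4 lost it without neuron knockdown library 1, 2 or 3.

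The control crosses give the same contrast between drivers without the RNAi. Between *elav* control and *repo* control heads, 221 of 10028 genes were higher (2.2%) and 184 were lower (1.83%) by the same test. These libraries share none with the knockdown comparison. Of the 442 knockdown calls, 94 (21.3%) were also called in the same direction between the controls, and these 94 were 23.2% of the control calls. They comprised 45 of the 184 higher and 49 of the 258 lower genes. Another 12 were called in opposite directions, all of them lower in neuron knockdown heads and higher in *elav* control heads. Among the 82 genes with at least a 4-fold difference, 34 were called the same way in controls. Of the 77 calls kept in all 6 fits with a library left out, 37 were. By sign alone, 318 of the 442 had the same direction between controls, 109 had the opposite, and 15 were not tested there. The log2 fold changes of both comparisons correlated at a Pearson r of 0.764 among the 427 calls tested in both, and at 0.167 over 9841 genes. The share called in both depends on the threshold, so it does not measure the share of the difference present without the RNAi. In edgeR's interaction test over all 12 libraries, the neuron over glia difference was more positive in knockdown than in control heads for 64 genes (0.624%) and more negative for 245 (2.39%) of 10257 tested. The counts became 112 and 228 with both libraries that stood apart left out, an alternative chosen after seeing the data. Of the 442 calls, 87 were also interaction calls, 20 positive and 67 negative.

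**Figure D1:**
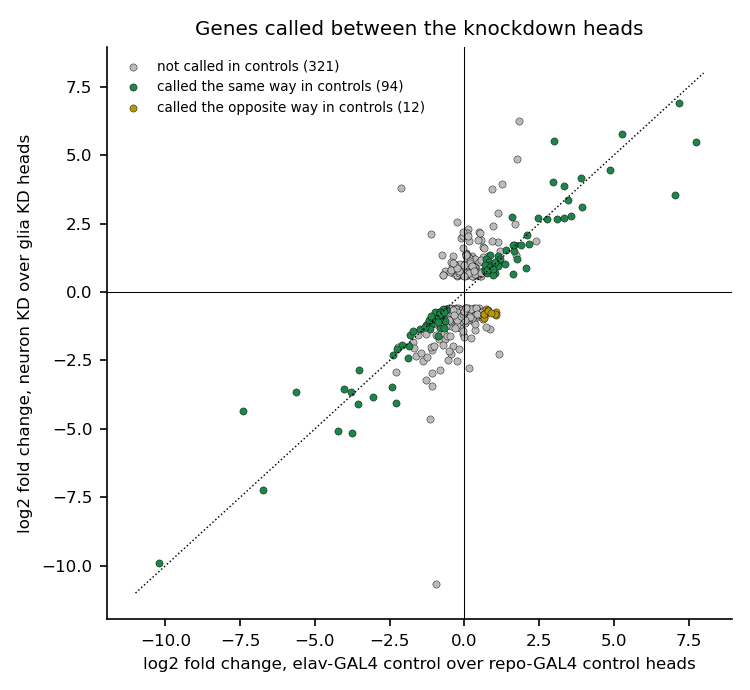
Log2 fold change of neuron over glia knockdown heads (vertical axis) against that of *elav*-GAL4 over *repo*-GAL4 control heads (horizontal axis), 1 point per gene called between the knockdown heads and tested in both, with the dotted line marking equal values. The 94 genes called the same way lie along the diagonal in the upper right and lower left, and the 12 called in opposite directions lie together at the lower right of the origin.

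The largest reproducible differences were in genes that separated the driver crosses with or without the RNAi. *Tektin-C*, which encodes a filament protein of cilia and sperm flagella, was at 40.8, 45.0 and 45.2 CPM in neuron knockdown and 0.798, 0.905 and 0.671 CPM in glia knockdown heads. The control crosses gave 30.3, 33.4 and 32.2 CPM under *elav*-GAL4 and 1.10, 0.706 and 0.628 CPM under *repo*-GAL4. Every *elav* library was far above every *repo* library. The difference on the log2 scale was 5.77 (SE 0.12, edgeR adjusted p = 5.55e-06) between knockdown heads and 5.27 between control heads. *lncRNA:CR46123*, a noncoding RNA on chromosome arm 3R, was the mirror image. It had 0 counts in all 6 *elav* libraries and 3.53 to 6.02 CPM in glia knockdown heads, so glia knockdown was at least 128-fold higher against a floor of 3 counts over the group. *lncRNA:CR44057*, whose exons overlap another noncoding RNA, had 1 count in neuron and 192 counts in glia knockdown heads. Its CPM ratio was 210, with a 95% counting interval from 37.3 to 8344.

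Other genes of this kind have known roles. *mTerf3*, a regulator of mitochondrial transcription and translation chosen here after its values were seen, was at 81.5, 94.6 and 69.9 CPM in neuron knockdown and 14.4, 11.9 and 12.0 CPM in glia knockdown heads. Its log2 fold change was 2.68 between knockdowns and 3.09 between controls, so the 2 differences were close in size. *Cc2d2a*, a ciliary transition zone gene whose exons overlap *CG34194*, was lower in neuron knockdown heads, at -4.11 (SE 0.27, edgeR adjusted p = 0.00128) on the log2 scale and at -3.56 between controls. *w*, the ABC transporter of eye pigment precursors that also marks many fly transgenes, was at 22.1, 21.6 and 29.6 CPM in neuron knockdown heads. In glia knockdown heads it was at 126, 131 and 99.0 CPM. The log2 fold change of *w* was -2.29 (SE 0.16) between knockdowns and -2.37 between controls, with an interaction value of 0.10 (edgeR adjusted p = 0.849). The labels do not say which marker each stock carries.

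Among the 20 genes with the largest differences, *CG9616*, *CG9733*, *CG31776*, *Obp99d*, *CG11052*, *CG17267*, *cas*, *Unc-115b* and *CG9377* were likewise called in the same direction between controls. *Unc-115b* shares exons with *p24-2* and *CG18542*, so its 65 counts in neuron and 1 count in glia knockdown heads cannot be assigned to one of them. *cas*, a zinc finger factor of the embryonic nervous system, had 80 and 3 counts, a ratio of 24.4 with a 95% counting interval of 8.04 to 121. *CG9377*, a trypsin-like protein, was at 131, 189 and 23.0 CPM against 7.11, 7.95 and 6.22 CPM. Neuron knockdown library 3 was the lowest of its group, and the log2 fold change of *CG9377* was 4.01 with it and 4.50 without it. The remaining genes of the 20 were not called between the controls or had too few counts there to be tested. *CG4476*, a predicted neurotransmitter transporter, was at 11.9, 13.5 and 12.7 CPM against 0.109, 0.118 and 1.16 CPM. In both control groups it was also present, at 11.6 to 15.9 CPM under *elav*-GAL4 and 2.31 to 8.02 CPM under *repo*-GAL4. *hll* was at 70.4, 2.88 and 39.3 CPM in neuron knockdown heads and below 1 CPM in each glia knockdown library, a wide spread within one group.

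**Figure D2:**
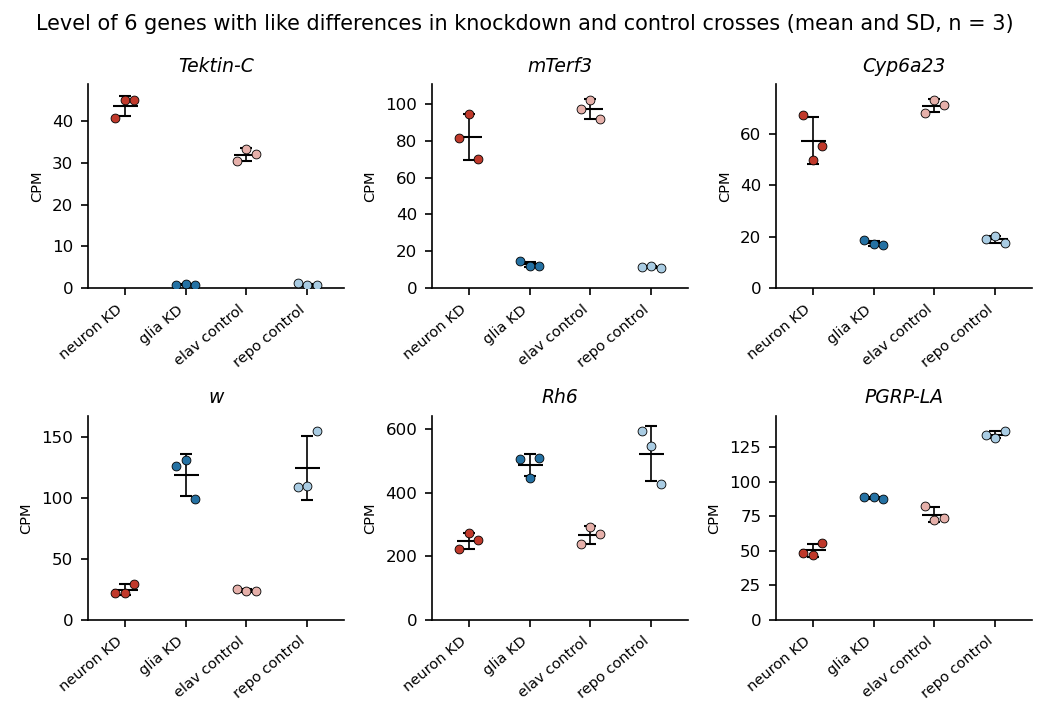
Level in CPM (vertical axes, from 0) of 6 genes in the 12 libraries by group, with points for libraries and lines for mean and SD of 3. *Tektin-C*, *mTerf3* and *Cyp6a23* are high in both *elav*-GAL4 groups, *w*, *Rh6* and *PGRP-LA* are high in both *repo*-GAL4 groups, and the order of drivers is the same with and without the RNAi.

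Of 32 photoreceptor and phototransduction genes tested, 7 were higher in neuron knockdown heads (*ninaA*, *inaD*, *eys*, *stops*, *laza*, *Gbeta76C* and *rtp*), 1 was lower (*Rh6*), and the other 24 were not called. The summed level of the list overlapped, at 59754, 69323 and 51595 CPM against 57933, 53580 and 59921 CPM. The median log2 fold change was 0.25. Of the 32, 17 lay without overlap above the glia knockdown libraries and 2 below, against 36.7% of all genes tested in either direction. Without neuron knockdown library 3 the median was 0.26, with 5 higher and 1 lower. Only 1 gene of the list was higher and 1 lower between the controls, and their median was -0.05.

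*ninaA* had the largest change of the list. It encodes the cyclophilin that carries rhodopsin 1 through the secretory pathway of photoreceptors. Its levels were 129, 141 and 141 CPM in neuron knockdown and 28.0, 30.6 and 34.4 CPM in glia knockdown heads. The control heads were at 141, 137 and 140 CPM under *elav*-GAL4 and 93.9, 101 and 94.9 CPM under *repo*-GAL4. Glia knockdown heads thus held less *ninaA* RNA than any of the other 9 libraries. On the log2 scale the difference was 2.15 (SE 0.10, edgeR adjusted p = 0.000324) between knockdowns and 0.54 between controls. The interaction was 1.62 (edgeR adjusted p = 0.000226), and the call was kept in all 6 fits with a library left out. The gene lies at 2L:877302-878270 on BDGP6, and its exons overlap *CG15824*.

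*inaD*, the scaffold that holds the phototransduction proteins together, was at 673, 760 and 673 CPM in neuron knockdown and 319, 292 and 359 CPM in glia knockdown heads. The log2 difference was 1.12 (SE 0.12, edgeR adjusted p = 0.00521), the interaction was 0.93 (adjusted p = 0.0139), and the call was kept in all 6 fits. Control heads of both drivers lay between 558 and 716 CPM. Glia knockdown was again the low group. *eys*, the secreted protein of the space between rhabdomeres, was at 460, 454 and 818 CPM against 266, 245 and 296 CPM, with a log2 fold change of 1.10 that became 0.77 without neuron knockdown library 3. *stops*, a regulator of photoreceptor phospholipase C, differed by 0.78, and *laza*, a lipid phosphate phosphatase of photoreceptors, by 0.74. *Gbeta76C*, the G protein subunit of the light response, differed by 0.66, and *rtp*, which encodes retinophilin, by 0.61. The rhodopsin of the outer photoreceptors, *ninaE*, was at 14594 to 28498 CPM in neuron and 20471 to 23086 CPM in glia knockdown heads, overlapping ranges with a log2 fold change of 0.02.

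*Rh6*, the green-sensitive rhodopsin of inner photoreceptors, went the opposite way in both kinds of cross. It was at 221, 272 and 251 CPM in neuron knockdown and 506, 448 and 510 CPM in glia knockdown heads. Its difference on the log2 scale was -0.98 between knockdowns and -0.97 between controls, and the interaction was 0.00 to 2 decimals (edgeR adjusted p = 0.998). Further retinal genes outside the list were chosen after their values were seen. *ninaG*, an oxidoreductase in the synthesis of the visual chromophore, was at 55.7, 45.7 and 50.8 CPM against 25.4, 26.3 and 28.6 CPM. *Mppe*, a metallophosphoesterase of rhodopsin maturation, was at 139, 157 and 133 CPM against 77.5, 72.5 and 77.9 CPM. *Cpn*, the calcium-binding protein calphotin, was at 484, 518 and 755 CPM against 284, 278 and 302 CPM. *Pdh*, a retinol dehydrogenase of pigment cells, was at 1789, 1678 and 1905 CPM against 984, 1032 and 1004 CPM. Each of these 4 genes, picked for its values, was called. The call was kept in all 6 fits with a library left out for *ninaG*, and in 3 of 6 for *Cpn* and for *Pdh*. *ninaG* had an interaction of 0.61 (edgeR adjusted p = 0.0447) and *Mppe* one of 0.58 (adjusted p = 0.0450). The interactions of *Cpn* and *Pdh* were not called (adjusted p = 0.108 and 0.244), and that of *ninaG* lost its call with both libraries that stood apart left out (adjusted p = 0.0808).

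Among 18 eye pigment genes tested, 1 was higher in neuron knockdown heads and 1, *w*, was lower, with a median log2 fold change of -0.01. *se* encodes an enzyme of red pteridine pigment synthesis. It was at 33.3, 28.9 and 51.5 CPM in neuron knockdown and 7.40, 8.15 and 9.26 CPM in glia knockdown heads. Its log2 fold change was 2.2 (SE 0.23, edgeR adjusted p = 0.00521), its control contrast was -0.04, and its interaction was 2.25 (adjusted p = 0.0370), which became 1.31 with both libraries that stood apart left out. The exons of *se* overlap *GstO2*. *v*, a tryptophan oxygenase of brown pigment that also marks transgenes, ranged from 27.1 to 62.0 CPM and from 43.5 to 72.1 CPM, overlapping, with a log2 fold change of -0.17 (adjusted p = 0.769). *y*, taken here as a transgene marker, was at 4.16, 3.63 and 4.22 CPM against 1.60, 1.81 and 2.33 CPM, a log2 fold change of 1.07 (adjusted p = 0.0267). Its call was kept in 3 of 6 fits with a library left out, and its interaction was not called (edgeR adjusted p = 0.0770).

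Glia knockdown heads held more RNA of 3 genes that handle beta-alanine, the amino acid that glia join to histamine and dopamine. *b* encodes the aspartate decarboxylase that makes beta-alanine. It was at 27.8, 37.3 and 32.0 CPM in neuron knockdown and 159, 151 and 153 CPM in glia knockdown heads, without overlap. The control heads were at 31.6 to 44.1 CPM under *elav*-GAL4 and 32.7 to 75.3 CPM under *repo*-GAL4. The log2 fold change was -2.25 (SE 0.12, edgeR adjusted p = 0.000567) and the interaction was -1.80 (adjusted p = 0.0194). *e* encodes the glial enzyme that conjugates beta-alanine to amines. It was at 41.5, 37.2 and 82.2 CPM against 227, 218 and 189 CPM, a log2 fold change of -1.98 (SE 0.30, adjusted p = 0.0181). Neuron knockdown library 3 was the highest of its group, and without it the value was -2.42. *Balat*, a beta-alanine transporter chosen after its values were seen, was at 5.86, 6.24 and 9.54 CPM against 45.4, 40.8 and 36.6 CPM. Its difference on the log2 scale was -2.51 (SE 0.19, adjusted p = 0.00163), and its exons overlap an antisense RNA. For *e* and *Balat* the interaction was -0.93 and -1.11 at adjusted p of 0.319 and 0.226, so a difference from the control contrast was not shown for these 2.

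Other genes of histamine and dopamine handling were looked at with the same hindsight. *Hdc*, which makes histamine, was at 98.8, 108 and 139 CPM in neuron knockdown and 70.6, 70.1 and 79.1 CPM in glia knockdown heads. Its log2 fold change of 0.65 was called (edgeR adjusted p = 0.0376). Without neuron knockdown library 3 it was 0.50, below the 1.5-fold limit, and the call was kept in 1 of 6 fits with a library left out. The interaction of *Hdc* was not called (adjusted p = 0.188). *t*, the hydrolase that frees histamine and dopamine from beta-alanine, differed by 0.46, and *CarT*, the carcinine transporter of photoreceptors, by 0.40. Both had an adjusted p under 0.05 but less than a 1.5-fold difference. The histamine receptors *ort* and *HisCl1* had values of -0.31 and 0.15 with adjusted p of 0.104 and 0.619. *ple*, tyrosine hydroxylase, was at 102, 93.4 and 145 CPM against 58.9, 55.5 and 57.2 CPM, a called difference of 0.99. It was 0.77 without neuron knockdown library 3, and the interaction was not called (adjusted p = 0.240). *Ddc*, dopa decarboxylase, differed by 0.69 between knockdowns and 0.75 between controls.

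Among the 17 glia markers, *Gli*, *alrm* and *wrapper* were lower in neuron knockdown heads together with *e*. *Gli* encodes gliotactin, a protein of tricellular septate junctions in the glial blood-brain barrier. Its levels were 40.8, 36.3 and 42.8 CPM in neuron knockdown and 84.9, 86.8 and 78.4 CPM in glia knockdown heads. All 6 control libraries lay between 38.2 and 44.9 CPM, so the glia knockdown libraries were the high ones. The difference on the log2 scale was -1.06 (SE 0.09, edgeR adjusted p = 0.00186), the interaction was -0.93 (adjusted p = 0.00438), and the call was kept in all 6 fits. *alrm*, an astrocyte gene, was at 66.9, 72 and 98.8 CPM against 152, 138 and 139 CPM, with a value of -0.85 and an interaction of -0.47 (adjusted p = 0.294). *wrapper*, an immunoglobulin protein of glia that ensheathe axons, was at 43.4, 41.5 and 34.9 CPM against 62.4, 56.9 and 60.3 CPM. Its value was -0.59 (interaction -0.64, adjusted p = 0.0302), and without neuron knockdown library 3 it was -0.49, below the 1.5-fold limit. The calls of *alrm*, *wrapper* and *e* were kept in 1, 2 and 2 of 6 fits with a library left out. *moody*, a receptor of the barrier, was at 77.5, 69.5 and 79.9 CPM against 110, 117 and 101 CPM, with a value of -0.53 (adjusted p = 0.0206) that also fell short of 1.5-fold.

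The other glia markers were not called, with values between -0.39 for *repo* and 0.43 for *bdl*. They include *Gs2*, *Eaat1* and *Eaat2*, which clear glutamate, at -0.21, -0.20 and 0.06. Without neuron knockdown library 3 the same number of the list, 4, were called lower and the median was -0.33. Between the controls the median was -0.13. *Ncc69*, an ion cotransporter that glia use to keep the fluid of nerves in balance, was chosen after its values were seen. It was at 137, 148 and 144 CPM against 284, 282 and 254 CPM, with a log2 fold change of -0.93 (SE 0.08, adjusted p = 0.00301) and an interaction of -0.88 (adjusted p = 0.0350).

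Among genes that averaged at least 50 CPM, the largest higher difference not also called between controls was that of *CG11426*, a lipid phosphate phosphatase family member at 3L:22470556-22473509. It was at 121, 108 and 205 CPM in neuron knockdown and 28.0, 28.9 and 30 CPM in glia knockdown heads, while all control libraries lay between 14.0 and 25.9 CPM. On the log2 scale the difference was 2.32 (SE 0.24, edgeR adjusted p = 0.00521), and it was 1.99 without neuron knockdown library 3. The interaction was 2.2 (adjusted p = 0.00811). *Adgf-A*, a secreted adenosine deaminase whose exons overlap *Adgf-A2*, was at 94.7, 107 and 102 CPM against 40.9, 38.6 and 40.1 CPM. Its value of 1.35 stood beside 0.85 between the controls, where it was also called. *CG8665*, a formyltetrahydrofolate dehydrogenase, was at 108, 68.8 and 80.0 CPM against 24.3, 45.7 and 33.6 CPM, a difference of 1.31 kept in 2 of 6 fits. *Tsf1*, the iron carrier transferrin, was at 1769, 848 and 717 CPM against 2535, 7089 and 5094 CPM. Its value of -2.14 had an adjusted p of 0.0470 and was not called without neuron knockdown library 3.

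**Figure D3:**
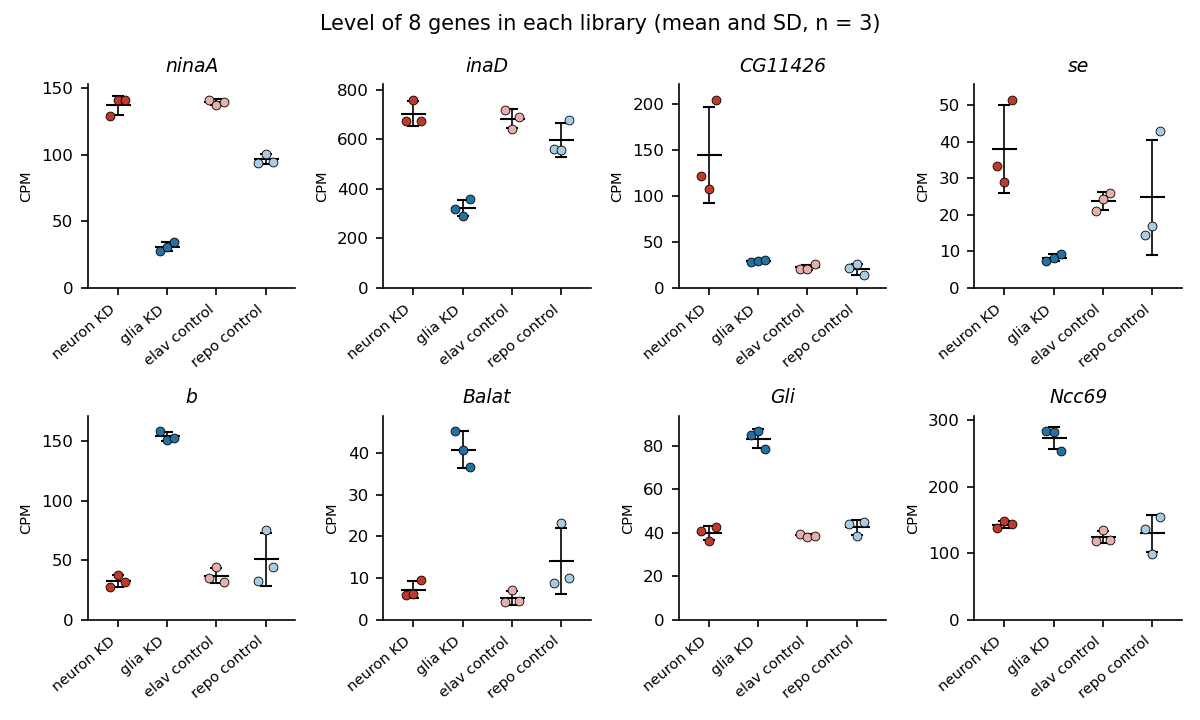
Level in CPM (vertical axes, from 0) of 8 genes in the 12 libraries by group, with points for libraries and lines for mean and SD of 3. Glia knockdown is the low group for *ninaA*, *inaD* and *se* and the high group for *b*, *Balat*, *Gli* and *Ncc69*, and neuron knockdown is the high group for *CG11426*.

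The nucleolar list had negative values for nearly all of its members, although few were called. It holds 54 tested genes of small nucleolar ribonucleoproteins and of ribosome assembly, which process ribosomal RNA and build the subunits. Of these, 53 had a negative log2 fold change, and 8 were called lower while 0 were called higher in edgeR, DESeq2 or limma-voom. Without overlap, 40 lay below the glia knockdown libraries and 0 above, against 36.7% of all genes tested in either direction. At an unadjusted p under 0.05, 44 were lower and 0 higher. The median was -0.59, and it ran from -0.64 to -0.46 as each library was left out. DESeq2 called 24 lower and limma-voom called 6, and 0 of the edgeR calls were kept in all 6 fits with a library left out. The summed level of the list was 1991, 2349 and 1857 CPM in neuron knockdown and 2964, 2384 and 2612 CPM in glia knockdown heads, with neuron knockdown library 2 close to glia knockdown library 2.

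The control crosses differed in the opposite direction. Between them 29 of the 54 were called higher under *elav*-GAL4, with a median of 0.69. The interaction was negative for all 54, with 40 called and a median of -1.22. It was -1.04 with both libraries that stood apart left out. All 53 genes that were lower between knockdowns were higher between controls. The largest called member was *CG7246*, at 4.84, 6.85 and 4.94 CPM against 11.5, 9.52 and 9.12 CPM, a log2 fold change of -0.86 (SE 0.18, edgeR adjusted p = 0.0388). *Mat89Ba*, which encodes a small subunit processome protein and overlaps *Mst89B*, was at 12.8, 15.4 and 11.4 CPM against 27.0, 20.1 and 21.8 CPM, with a value of -0.80. *CG8064* was at 13, 16.9 and 11.2 CPM against 25.5, 23.3 and 21.5 CPM, and *CG9799* was at 18.2, 22.3 and 16.1 CPM against 35.9, 28.7 and 29.8 CPM. The other called members, *l(3)72Dn*, *Rtc1* and *CG13097* among them, lay from -0.65 to -0.59. *Nop60B*, the pseudouridine synthase of box H/ACA particles, had the lowest value of the list at -0.93 but was not called (edgeR adjusted p = 0.0603), and its exons overlap 7 other genes. *Nop56* and *Fib*, core proteins of box C/D particles, had values of -0.81 and -0.68 with adjusted p of 0.0828 and 0.145.

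Of 8 tested subunits and factors of RNA polymerase I, which transcribes ribosomal RNA, 1 was called lower. All 8 values were negative, with a median of -0.50. *Polr1A*, the largest subunit, was at 25.4, 28.4 and 22.9 CPM in neuron knockdown and 47.7, 39.4 and 41.1 CPM in glia knockdown heads. The log2 fold change was -0.74 (SE 0.11, edgeR adjusted p = 0.0181), between controls it was 0.58, and the interaction was -1.32 (adjusted p = 0.00438). The exons of *Polr1A* overlap *CG12869*. *CG8939*, a ribosomal RNA methyltransferase outside the list, was at 22.2, 26.9 and 17.0 CPM against 46.3, 36.2 and 36.7 CPM. It is one of the 12 genes called in opposite directions, at -0.85 between knockdowns and 1.06 between controls. The others included *CG13096*, *Rrp5*, *CG12134*, *Art3*, *Noc2*, *Mat89Ba*, *l(3)72Dn* and *CG2875*. *Rrp5* and *Noc2* are conserved ribosome assembly factors named from yeast, where their roles are known.

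Of 82 cytoplasmic ribosomal proteins tested, 0 were called by edgeR or limma-voom and 1 by DESeq2, and 9 were lower at an unadjusted p under 0.05. Their median was -0.17, and without neuron knockdown library 3 it was -0.00. Of the 82, 76 were negative between knockdowns and positive between controls, where the median was 0.38. The interaction was negative for all 82, with a median of -0.55 that was -0.20 with both libraries that stood apart left out. Aminoacyl-tRNA synthetases, which charge tRNAs, were also not called, 0 of 20 by edgeR, DESeq2 or limma-voom, with 11 lower and 1 higher at an unadjusted p under 0.05 and a median of -0.33. Between controls their median was 0.32, with 3 called higher and 0 lower. Their interaction was called negative for 6 of 20 and positive for 0. Its median of -0.59 was -0.44 with both libraries that stood apart left out. Synthesis of pyrimidine nucleotides was examined after the values were seen. *r*, which encodes the enzyme for the first steps, was at 38.0, 23.6 and 35.3 CPM in neuron knockdown and 94.0, 80.5 and 85.0 CPM in glia knockdown heads, with a log2 fold change of -1.42 (edgeR adjusted p = 0.00979) and an interaction of -1.35 (adjusted p = 0.0306). *r-l*, UMP synthase, differed by -0.91, and *Dhod*, the enzyme between them in the pathway, had a value of -0.27 (adjusted p = 0.226).

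The chaperonin CCT is the ring that folds actin and tubulin, and 5 of its 8 subunits tested were lower in neuron knockdown heads (*CCT5*, *CCT1*, *CCT8*, *CCT3* and *CCT2*). All 8 were negative and without overlap, against 36.7% of all genes tested without overlap in either direction. None of the 5 calls was kept in all 6 fits. The median was -0.72, ranging from -0.83 to -0.63 as each library was left out. *CCT1* was at 45.3, 48.4 and 36.7 CPM in neuron knockdown and 79.9, 75.0 and 70.6 CPM in glia knockdown heads, a log2 fold change of -0.79 (SE 0.12, edgeR adjusted p = 0.0178). *CCT5*, whose exons overlap *EndoG*, was at 51.2, 63.2 and 39.3 CPM against 99.9, 88.7 and 80.8 CPM. *CCT8* and *CCT3* had values of -0.78 and -0.72. Between controls all 8 were also negative, with a median of -0.19. The summed level was 469 to 496 CPM in *elav* control heads and 617, 697 and 385 CPM in *repo* control heads, with library 3, which stood apart, the lowest. The median interaction of -0.40 became -0.08 with both libraries that stood apart left out, so a difference beyond that between the drivers was not shown. Heat shock proteins gave 1 call of 11 and a median of -0.06. The call was *Hsp70Ab*, which was lower in neuron knockdown heads, at -2.86 and lower between controls, at -3.53. Near-identical *Hsp70* copies make the assignment of its reads uncertain.

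**Figure D4:**
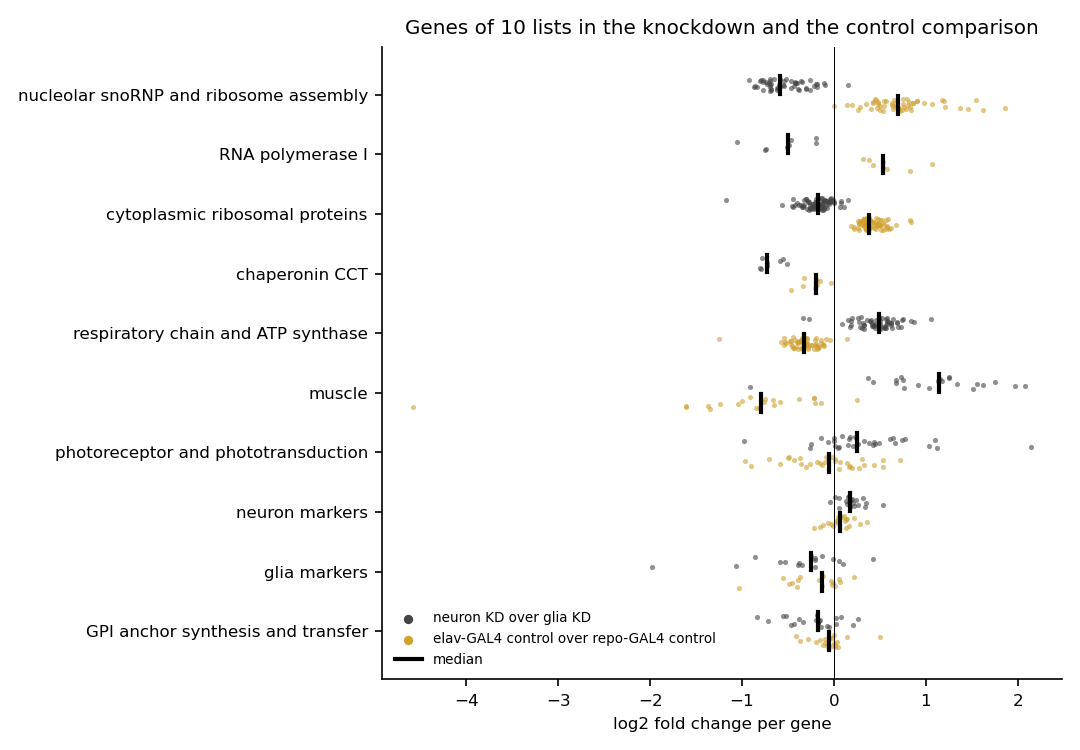
Log2 fold change of single genes in 10 lists (horizontal axis) for neuron over glia knockdown heads (dark points) and *elav*-GAL4 over *repo*-GAL4 control heads (yellow points), with a bar at each median. The nucleolar list has medians of -0.59 and 0.69 on opposite sides of 0, and the muscle list has medians of 1.15 and -0.79, of which the former falls to 0.41 without neuron knockdown library 3. The latter includes *repo* control library 3, which also stood apart. The median interaction of the muscle list was 1.96, and 0.39 with both libraries that stood apart left out.

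The GPI anchor pathway held no called gene. Of 22 tested genes of anchor synthesis and transfer, 0 were called by edgeR or limma-voom and 1 was called lower by DESeq2. At an unadjusted p under 0.05, 6 were lower and 0 were higher, and the median was -0.17. Over all 9940 genes tested, 1461 were lower and 1386 higher at that limit. *PIG-V*, a mannosyltransferase of the anchor, was at 10.7, 9.35 and 8.22 CPM in neuron knockdown and 14.4, 13.3 and 12.9 CPM in glia knockdown heads, with a value of -0.52 (edgeR adjusted p = 0.0510). *PIG-U*, a subunit of the transamidase that attaches the anchor, had a value of -0.44 with an adjusted p of 0.0499, short of 1.5-fold. *PIG-H* and *PIG-C*, partners of PIG-A in the same enzyme, had values of -0.38 and -0.20 (adjusted p = 0.133 and 0.474). *PIG-B*, another mannosyltransferase, had a value of -0.16 (adjusted p = 0.233). Of 20 GPI-anchored surface proteins, 0 were called by edgeR, DESeq2 or limma-voom, with 3 higher and 2 lower at an unadjusted p under 0.05 and a median of 0.08.

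Genes that supply the pathway or share its compartment gave few calls. *Dolk*, dolichol kinase, makes the lipid carrier behind the mannose donor of the anchor and was chosen after its values were seen. It was at 58.3, 58.7 and 44.6 CPM against 108, 106 and 90.6 CPM, with a log2 fold change of -0.91 (SE 0.13, edgeR adjusted p = 0.0171) and an interaction of -1.03 (adjusted p = 0.0249). *Alg9*, a mannosyltransferase of N-glycans, differed by -0.70 (adjusted p = 0.0362). Without neuron knockdown library 3 it was at -0.57, below the 1.5-fold limit, and its call was kept in 0 of 6 fits with a library left out. The lists of endoplasmic reticulum folding and stress (23 genes), signal recognition particle and Sec61 translocon (16), hexosamine and O-GlcNAc (7) and proteasome (31) had 0 calls by edgeR, DESeq2 or limma-voom. Their medians were -0.13, -0.06, -0.20 and -0.16. At an unadjusted p under 0.05 these lists held 1 higher and 3 lower, 0 and 0, 2 and 4, and 0 and 9 genes. The groups did not overlap for 7, 2, 6 and 18 genes of these lists, against 36.7% of all genes tested. In the proteasome list all 18 were lower, and 29 of 31 values were negative. Between controls the median of this list was further below 0, at -0.36. Its interaction was positive for 29 of 31 genes, with 0 called and a median of 0.19. The median of the translocon list was 0.15 without neuron knockdown library 3.

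Several immune effectors were split by library within the glia knockdown group. *DptA*, the antibacterial peptide diptericin A, was at 0.0756, 0.542 and 0.151 CPM in neuron knockdown heads. In glia knockdown heads it was at 0.798, 579 and 730 CPM, so library 1 of that group resembled the neuron knockdown libraries while libraries 2 and 3 were far above it. The log2 fold change of -10.66 (SE 2.40, edgeR adjusted p = 0.0470) was kept in 1 of 6 fits. *DptB* followed the same pattern, at 1.55, 3.90 and 0.452 CPM against 2.86, 964 and 1062 CPM, and was not called (adjusted p = 0.0561). *Dro*, drosocin, was at 625 and 578 CPM in glia knockdown libraries 2 and 3 and at 2.14 CPM in library 1.

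The other called members of the 30 immune effectors tested did not share this split. *BomT1*, *BomS6* and *BomT2*, short secreted peptides of the Toll response, were lower in neuron knockdown heads, at -1.71, -1.35 and -1.16. *BomT2* was at 49.5, 38.2 and 46.8 CPM against 83.0, 99.7 and 118 CPM. *Def*, defensin, was the only member called higher, at 16.9, 13.3 and 13.6 CPM against 2.97, 2.83 and 2.06 CPM. Its value was 2.47 (SE 0.18, edgeR adjusted p = 0.00131), kept in all 6 fits. The control contrast of *Def* was 1.68 (adjusted p = 0.159) and its interaction 0.80 (adjusted p = 0.540). *PGRP-LA*, a peptidoglycan recognition protein chosen after its values were seen, was at 48.3, 46.6 and 55.6 CPM against 88.8, 88.9 and 87.5 CPM, with a log2 fold change of -0.82 in both kinds of cross. *PGRP-LB*, an amidase that dampens the immune response, was at 6.35, 6.27 and 4.98 CPM against 11.3, 22.0 and 20.5 CPM, with glia knockdown library 1 again the lowest of its group. The median of the effector list was -0.59, with 1 higher, 4 lower, and 4 and 14 at an unadjusted p under 0.05. Between controls its median was -0.50, with 1 higher and 2 lower, and 0 of 30 interactions were called. Turandot stress genes had 0 calls among 9 by edgeR, DESeq2 or limma-voom, with 2 higher at an unadjusted p under 0.05 and a median of 0.18.

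Enzymes that metabolise foreign compounds differed in both directions and often in the same way between the controls. Of 67 cytochrome P450 genes tested, 4 were higher and 9 lower, with a median of 0.04. *Cyp6a23* was at 67.2, 49.6 and 55.1 CPM in neuron knockdown and 18.5, 17.0 and 16.6 CPM in glia knockdown heads, a log2 fold change of 1.72 (SE 0.12, edgeR adjusted p = 0.00129) beside 1.91 between controls. *Cyp6a21* differed by 1.33 and 1.12, and *Cyp4d21*, which is tied to courtship in males, by -1.98 and -1.86. *Cyp4g15*, a P450 of the nervous system and chosen after its values were seen, was at 93.8, 97.6 and 93.1 CPM against 231, 218 and 217 CPM, with -1.23 between knockdowns and -0.46 (not called) between controls. *Cyp6g2*, whose exons overlap *Cyp6g1*, differed by -2.39 and was below 2 CPM in every library.

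Conjugating enzymes gave similar mixtures. Of 20 UDP-glycosyltransferases, 4 were higher and 2 lower, with a median of -0.00. *Ugt302K1* was at 7.78, 7.83 and 6.83 CPM against 1.85, 2.24 and 2.06 CPM, and its value was 1.87 beside 0.91 (not called) between controls. *Ugt35E2* differed by 1.76 and 2.17, *Ugt35C1* by -1.29 and -1.30, and *Ugt35E1* by 2.79 at levels below 1.3 CPM. Of 30 glutathione S-transferases, 1 was higher (*GstD3*, 0.93) and 4 were lower, with *GstD2* at -1.16, *GstE7* at -1.03 and *GstE6* at -0.81, and the median was -0.14. *GstD3*, *GstE7* and *GstE6* were called the same way between controls, and *GstD2* was not.

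Carrier proteins of the antennae and taste organs were also divided. Of 27 odorant-binding proteins, 4 were higher and 2 lower, with a median of 0.04. *Obp44a* was the most abundant of those named, at 350, 283 and 445 CPM in neuron knockdown and 849, 932 and 876 CPM in glia knockdown heads, a log2 fold change of -1.30 (SE 0.17, edgeR adjusted p = 0.0112) beside -0.69 between controls. Its exons overlap *Pabp2*. *Obp56h* was at 26.5, 29.9 and 17.9 CPM against 1.52, 3.19 and 6.53 CPM, and *Obp19c* at 7.82, 9.05 and 8.64 CPM against 3.44, 3.70 and 4.20 CPM. *Obp99d* was lower, at -3.85 and was also lower between controls. Of 33 odorant, gustatory and ionotropic receptors tested, 1 was called lower, *Or13a*, at 0.340, 0.169 and 0.226 CPM against 0.870, 1.38 and 1.21 CPM, and the median of these receptors was -0.29.

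Of 28 neuropeptides tested, 1 was higher, *Ilp5*, an insulin-like peptide of brain neurosecretory cells, and the median was 0.09. It was at 25.6, 22.7 and 23.4 CPM in neuron knockdown and 13.3, 17.6 and 16.1 CPM in glia knockdown heads, with a log2 fold change of 0.61 (SE 0.12, edgeR adjusted p = 0.0333) kept in 1 of 6 fits. The *repo* control heads held 27.3, 35.0 and 44.1 CPM, so the order of the drivers was the other way round without the RNAi, and the interaction was 1.33 (adjusted p = 0.0143). Of 10 circadian clock genes, 1 was lower with all 6 libraries, and 1 was higher and 4 lower without neuron knockdown library 3. Between controls 1 was higher and 4 were lower. *vri*, a repressor of the clock, was lower, at -0.87 between knockdowns and -1.12 between controls, and the median was -0.14. *tim*, the partner of period, was at 99.4, 136 and 333 CPM against 517, 512 and 534 CPM and was not called at -1.46 (adjusted p = 0.0796), but it was called without neuron knockdown library 3 at -2.14 (adjusted p = 0.00123). Of 10 methuselah-like receptors, *mthl3* and *mthl5* were lower, at -0.98 and -0.66, and the median was -0.33. *mthl8*, a further receptor of that family, had 0 counts in all 6 knockdown libraries and between 120 and 231 counts in each control library, so no difference between the knockdowns could be measured.

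Muscle, mitochondrial and cuticle genes moved with neuron knockdown library 3. Of 22 muscle genes tested, 0 were called by edgeR or limma-voom and 6 by DESeq2, while 17 were higher at an unadjusted p under 0.05 and the median was 1.15. The summed level was 8711, 7805 and 26298 CPM in neuron knockdown and 6030, 5872 and 6202 CPM in glia knockdown heads. *Mhc*, muscle myosin heavy chain, was at 2540, 2334 and 7131 CPM against 1641, 1714 and 1662 CPM. Without neuron knockdown library 3 the median was 0.41, with 2 genes higher and 1 lower. The respiratory chain and ATP synthase had 0 of 62 called by edgeR or limma-voom and 18 by DESeq2, with 38 higher at an unadjusted p under 0.05, 60 positive and a median of 0.49. Its summed level was 15012, 14046 and 22956 CPM against 12063, 12488 and 12478 CPM, and the median was 0.25 without that library. The part of head muscle in these differences was not tested.

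Of 34 cuticle protein genes tested, 4 were higher and 2 lower, with a median of 1.24 that was 0.53 without neuron knockdown library 3, when 7 were higher and 2 lower. *Cpr49Ag* was at 12.1, 10.1 and 41.7 CPM in neuron knockdown and 1.41, 1.42 and 1.74 CPM in glia knockdown heads. Its log2 fold change was 3.80 with that library and 2.87 without it, and its interaction was 5.94 (edgeR adjusted p = 0.00734). *Ccp84Ag* differed by 3.77 and *TwdlT*, at 14.8, 13.4 and 16.5 CPM against 3.41, 4.96 and 2.33 CPM, by 2.05. *Cpr64Ac* went the other way, at 0.113, 0.0339 and 0.679 CPM against 5.18, 4.76 and 3.98 CPM, a value of -4.09. *Desi*, an epidermal gene, was at 0.680, 0.813 and 1.13 CPM against 0.109, 0 and 0.0447 CPM. The TCA cycle (18 genes) and glycolysis (17) had 0 calls by edgeR and limma-voom and 1 each by DESeq2. Their medians of 0.38 and 0.20 became 0.14 and 0.08 without neuron knockdown library 3, and 2 genes of each list were higher and 0 and 1 lower at an unadjusted p under 0.05.

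**Figure D5:**
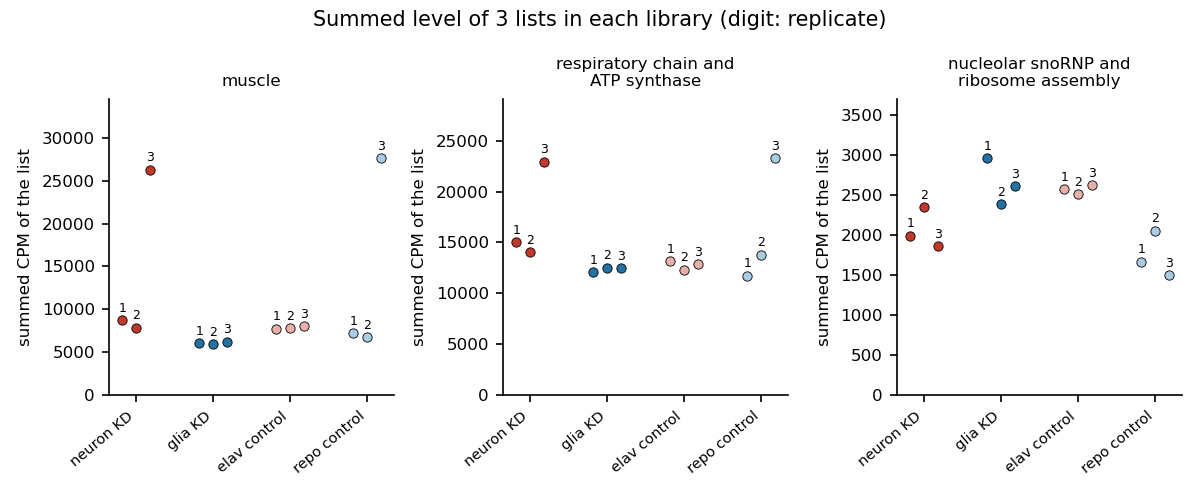
Summed CPM of 3 gene lists (vertical axes, from 0) in each of the 12 libraries by group, with the replicate digit above each point. Neuron knockdown library 3 and *repo* control library 3 stand above all others for muscle genes, at 26298 and 27673 CPM, while the nucleolar list is higher in glia than neuron knockdown heads and lower in *repo* than *elav* control heads.

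The remaining lists gave 1 call or 0. Amino acid metabolism had 0 of 29 called by edgeR or limma-voom and 4 by DESeq2, 3 higher and 1 lower, with 6 higher and 2 lower at an unadjusted p under 0.05 and a median of 0.15. Fat body (13 genes), hemocyte (8) and sex (9) markers had 0 calls by edgeR, DESeq2 or limma-voom and medians of 0.12, -0.03 and 0.00. At an unadjusted p under 0.05 these markers held 1 higher and 0 lower, 0 and 1, and 2 and 1 genes. Of 7 midgut enzymes, *Amy-d*, an amylase with a near-identical copy, was higher at 52.9, 16.5 and 30.8 CPM against 5.91, 10.3 and 9.43 CPM, a value of 1.97 kept in 2 of 6 fits, and the median of these enzymes was 0.07.

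*CG31220*, a predicted serine protease whose exons overlap a transposon copy, was at 0.227, 0.237 and 0.151 CPM in neuron knockdown and 1.27, 1.26 and 1.03 CPM in glia knockdown heads, with 1.18 to 2.90 CPM in all 6 control libraries. *CG13737* was at 1.55, 1.83 and 1.58 CPM against 0.399, 0.315 and 0.492 CPM. *CG1628*, a mitochondrial carrier, was more abundant, at 46.4, 63.5 and 42.0 CPM against 117, 146 and 105 CPM, with a log2 fold change of -1.28 and an interaction of -1.97 (edgeR adjusted p = 0.0107). Its exons overlap *CG2124* and *CG43347*. *CAH5*, a carbonic anhydrase, had 3 counts in neuron and 79 counts in glia knockdown heads, a ratio of 28.8 with a 95% counting interval of 9.51 to 143. *lncRNA:CR44602* was at 1.78, 0.915 and 0.679 CPM against 0, 0.118 and 0.0894 CPM. Its control libraries did not overlap either, at 0.271 to 0.530 CPM under *elav*-GAL4 and 0 to 0.0825 CPM under *repo*-GAL4.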

How the data were processed

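RNA from pooled whole heads was sequenced as poly(A) libraries with a stranded kit. The deposited values are counts of reads per FlyBase gene without normalization, which the authors made by trimming with seqtk, alignment with Bowtie2 to BDGP Release 6 (dm6 in the labels) and sorting with SAMtools. The counting program and its use of strand are not given in the sources used here, so reads of overlapping or antisense genes may be shared. The authors also deposited a table of DESeq2 fold changes and p-values for each driver. None of these values was used, only the gene symbols of the glia table, for 103 of 17737 identifiers. The other names (17599) and positions came from Ensembl release 115, and 35 identifiers had no symbol.

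Counts were analysed with edgeR 4.0.16 in R 4.3.3 (default expression filter, TMM, two-sided quasi-likelihood F test, Benjamini-Hochberg adjustment across every tested gene). A call needed a 1.5-fold difference and an adjusted p no higher than 0.05. The knockdown comparison used its 6 libraries, the control comparison its 6, and the interaction all 12. Levels are TMM-scaled CPM. The alternatives were DESeq2 1.42.0, limma-voom (limma 3.58.1), other scalings, filters and fold limits, a fit of 12 libraries, a replicate block and each library left out. Depth was 20694850 to 31893782 counts per library, where 3 counts equal about 0.1 CPM, and intervals cover counting error only. Within every group, replicate libraries differed by more than counting noise.

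Named genes were *PIG-A*, *elav*, *repo*, *w*, *v*, *y* and *mthl8*, the 10 largest called differences each way with a mean of at least 10 counts and groups that do not overlap, 5 each way among genes of at least 50 CPM, up to 4 called members of each of 36 lists, and 5 interaction calls each way. Most genes chosen after their values were seen are marked. *Yp1*, *lncRNA:roX1*, *lncRNA:roX2*, *PIG-B*, *Alg9* and *PGRP-LB* were chosen in the same way. Uncalled genes other than the fixed ones, such as *tim*, *DptB*, *Dro*, *Nop60B*, *Nop56*, *Fib*, *moody*, *PIG-V*, *PIG-U* and *ninaE*, lie outside the rule. So do called members of a list beyond its 4 largest. The lists and the rule were written with earlier results of these data known.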

Additional observations from a re-analysis of the deposited data

Results flagged for a closer look

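The difference between neuron and glia knockdown heads differed from that between the control crosses for 21 of the named genes, by edgeR's interaction test over 12 libraries at an adjusted p of at most 0.05. The naming rule itself took 5 interaction calls each way, so this number does not measure how common such calls are. Over all 10257 genes tested, 64 (0.624%) were called more positive and 245 (2.39%) more negative. The values below are differences of log2 fold changes, knockdown minus control. Genes with a more positive difference in knockdown heads were *Cpr49Ag* (5.94), *CG34291* (3.24), *se* (2.25), *CG11426* (2.2), *CG13737* (2.08), *ninaA* (1.62), *Ilp5* (1.33) and *inaD* (0.93). Genes with a more negative difference were *lncRNA:CR45181* (-3.42), *CG31220* (-2.26), *CG17261* (-2.11), *CG1628* (-1.97), *CG8939* (-1.91), *b* (-1.80), *CG7246* (-1.49), *Mat89Ba* (-1.44), *Polr1A* (-1.32), *CG8064* (-1.19), *CG9799* (-1.16), *Gli* (-0.93) and *wrapper* (-0.64). With both libraries that stood apart left out, *se* had a value of 1.31, and *CG34291* (adjusted p = 0.0855), *CG31220* (0.0845), *CG17261* (0.0537) and *lncRNA:CR45181* (0.0504) were no longer called in edgeR.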

How the results depend on the processing

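Between knockdown heads, 184 genes were higher and 258 lower. DESeq2 gave 374 and 401, and a 2-fold limit gave 98 and 114. Leaving out each library in turn gave 37 to 245 higher and 45 to 313 lower. A replicate block gave 54 and 82, and a block with neuron knockdown library 3 left out, chosen after seeing the data, gave 26 and 34. The replicate numbers did not pair the samples, since deviations of same-numbered knockdown libraries correlated at -0.238, -0.249 and 0.01, and neuron knockdown library 1 correlated best with glia knockdown library 2 (0.368). The other scalings, filters and tools left both counts within 1.5 times. Between controls (221 and 184), the block gave 111 and 94, DESeq2 gave 310 and 346, and leaving out a library gave 51 to 357 higher and 40 to 448 lower, the highest without *repo* control library 3. The interaction counts (64 and 245) were 264 and 424 in DESeq2, 17 to 120 and 113 to 382 with a library left out, and 112 and 228 without both libraries that stood apart. Of the 84 named genes, no called gene changed direction under any setting, while *v*, not called at -0.17, was at 0.12 without neuron knockdown library 3, at 0.07 without glia knockdown library 2 and at 0.00 with the block and neuron knockdown library 3 left out. Of the 84, 63 lost their call under at least 1, and *PIG-A* gained one under 3. The causes were not tested, except that fits with a library left out have fewer samples. Depth limits what can be said of genes near 0.1 CPM.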
